A study of Mus musculus with 9 samples.

Results

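Signals of the glucocorticoid receptor gene Nr3c1 and 9 of its classic target genes (Fkbp5, Tsc22d3, Per1, Zbtb16, Klf9, Klf15, Sgk1, Dusp1 and Cebpd) were examined in tibialis anterior muscle of mice given the synthetic glucocorticoid dexamethasone (DEX), with or without turmeric water extract (TE) in the diet. The members were all probe sets of the expression array whose platform annotation gave exactly 1 symbol and that symbol was 1 of these 10 genes, of 18193 genes annotated in this way. They were 29 of 45037 probe sets, and 28 of the 29 reached a mean log2 signal of at least log2 of 50 in some group and were tested. The remaining probe set, 1447736_at of Fkbp5, stayed between 1.47 and 33.5 on the 9 arrays. Where a gene had several probe sets, the one with the highest mean log2 signal stood for it.

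The animals were 15-week-old male C57BL/6J mice, and 3 mice were profiled per group on 1 array each. The DEX+TE group ate an AIN93-based diet containing 2% water extract of Curcuma longa and received 5 mg/kg DEX intraperitoneally every day for 7 days, starting 5 days after the diet. The DEX group ate the diet without TE and received the same injections, and the control group ate that diet and received 0.9% saline. The sample titles word the TE treatment as following DEX, whereas the growth protocol and the study's methods start it before DEX. The mice profiled had been picked for body and muscle weights close to the average of their group. The time of day of tissue collection and the interval after the last injection are not stated in the sources used here.

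The glucocorticoid receptor is a nuclear receptor that waits in the cytoplasm in a complex with Hsp90 and cochaperones. Hormone binding releases it to the nucleus, where it binds DNA at glucocorticoid response elements, which are imperfect palindromes of AGAACA and TGTTCT around a 3-base spacer, and it also represses genes through other DNA-bound factors. Among its targets, Fkbp5 encodes a cochaperone that lowers the receptor's affinity for hormone, so its induction closes a negative feedback loop. In skeletal muscle the receptor is known for driving protein breakdown and amino acid release, in part through the transcription factor Klf15.

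RefSeq promoter windows, 250 bases before to 50 after a transcription start on GRCm38.p6, were found for 7 of the 10 genes, with 15 windows in all. Nr3c1, Zbtb16 and Cebpd had no window. Among the 7 genes with one, those whose signals differed most between DEX or all DEX-injected mice and control are printed here, together with Klf15. The complete element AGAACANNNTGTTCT, which reads the same on both strands, was present in 3 of 32851 mouse windows (0.00913%), and 1 of these 3 belonged to Sgk1. In the Sgk1 window at chr10:21993640-21993939 on the plus strand, 1 of 6 windows of that gene, it began 189 bases before the start. Capitals mark AGAACA and TGTTCT, with the spacer of the complete element in lower case.
Sgk1: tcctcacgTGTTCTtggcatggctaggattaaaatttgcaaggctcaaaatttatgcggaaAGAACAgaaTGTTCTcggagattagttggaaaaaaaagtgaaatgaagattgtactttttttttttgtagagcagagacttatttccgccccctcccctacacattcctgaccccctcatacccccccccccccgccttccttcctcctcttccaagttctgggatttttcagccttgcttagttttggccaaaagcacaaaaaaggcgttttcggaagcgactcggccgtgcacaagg
AGAACA or its reverse complement TGTTCT, each also counted inside the complete element, was present in 19% of all windows and in 4 of the 15. The Tsc22d3 window at chrX:140600473-140600772 on the minus strand had TGTTCT, in capitals, 185 bases before the start.
Tsc22d3: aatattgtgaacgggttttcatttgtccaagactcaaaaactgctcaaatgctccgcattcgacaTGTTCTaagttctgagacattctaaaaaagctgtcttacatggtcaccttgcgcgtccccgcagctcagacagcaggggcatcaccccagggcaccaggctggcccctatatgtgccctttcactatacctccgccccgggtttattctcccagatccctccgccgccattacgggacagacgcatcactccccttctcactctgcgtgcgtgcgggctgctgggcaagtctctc
The E-box CACGTG, the palindrome bound by the circadian activators Clock and Bmal1 and by other basic helix-loop-helix factors, was present in 7.15% of all windows and in 5 of the 15. It was found 166 bases before a Per1 start at chr11:69098699-69098998 on the plus strand and 169 bases before the Fkbp5 start at chr17:28486100-28486399 on the minus strand. The Klf15 window at chr6:90462326-90462625 on the plus strand held it 3 times, at 228, 172 and 3 bases before the start, and 0.0883% of all windows held 3 or more. Capitals mark CACGTG in these windows.
Per1: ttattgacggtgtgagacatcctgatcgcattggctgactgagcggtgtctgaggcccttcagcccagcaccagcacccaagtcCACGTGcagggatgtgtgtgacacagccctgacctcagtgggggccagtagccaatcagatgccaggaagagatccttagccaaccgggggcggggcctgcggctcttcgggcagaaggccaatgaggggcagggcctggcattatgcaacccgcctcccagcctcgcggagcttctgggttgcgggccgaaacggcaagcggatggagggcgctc
Fkbp5: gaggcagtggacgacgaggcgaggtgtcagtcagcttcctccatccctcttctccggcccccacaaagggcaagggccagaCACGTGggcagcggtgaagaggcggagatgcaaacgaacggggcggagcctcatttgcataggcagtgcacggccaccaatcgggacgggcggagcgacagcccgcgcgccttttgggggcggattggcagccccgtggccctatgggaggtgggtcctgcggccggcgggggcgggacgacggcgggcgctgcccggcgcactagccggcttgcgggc
Klf15: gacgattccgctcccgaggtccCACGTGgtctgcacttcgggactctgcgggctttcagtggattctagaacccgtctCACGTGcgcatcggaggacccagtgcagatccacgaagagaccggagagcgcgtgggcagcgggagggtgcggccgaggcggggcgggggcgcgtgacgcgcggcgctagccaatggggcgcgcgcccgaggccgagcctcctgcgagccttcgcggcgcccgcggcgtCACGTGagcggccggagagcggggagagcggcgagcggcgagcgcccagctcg
CACGTG also lay 126 bases before the Dusp1 start and at the 5′ end of the printed Sgk1 window, where it overlaps TGTTCT. In 2 other Sgk1 windows AGAACA or TGTTCT was present, 195 and 13 bases before their starts. These are matches of letters in short windows, and no binding was measured.

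**Figure D1:**
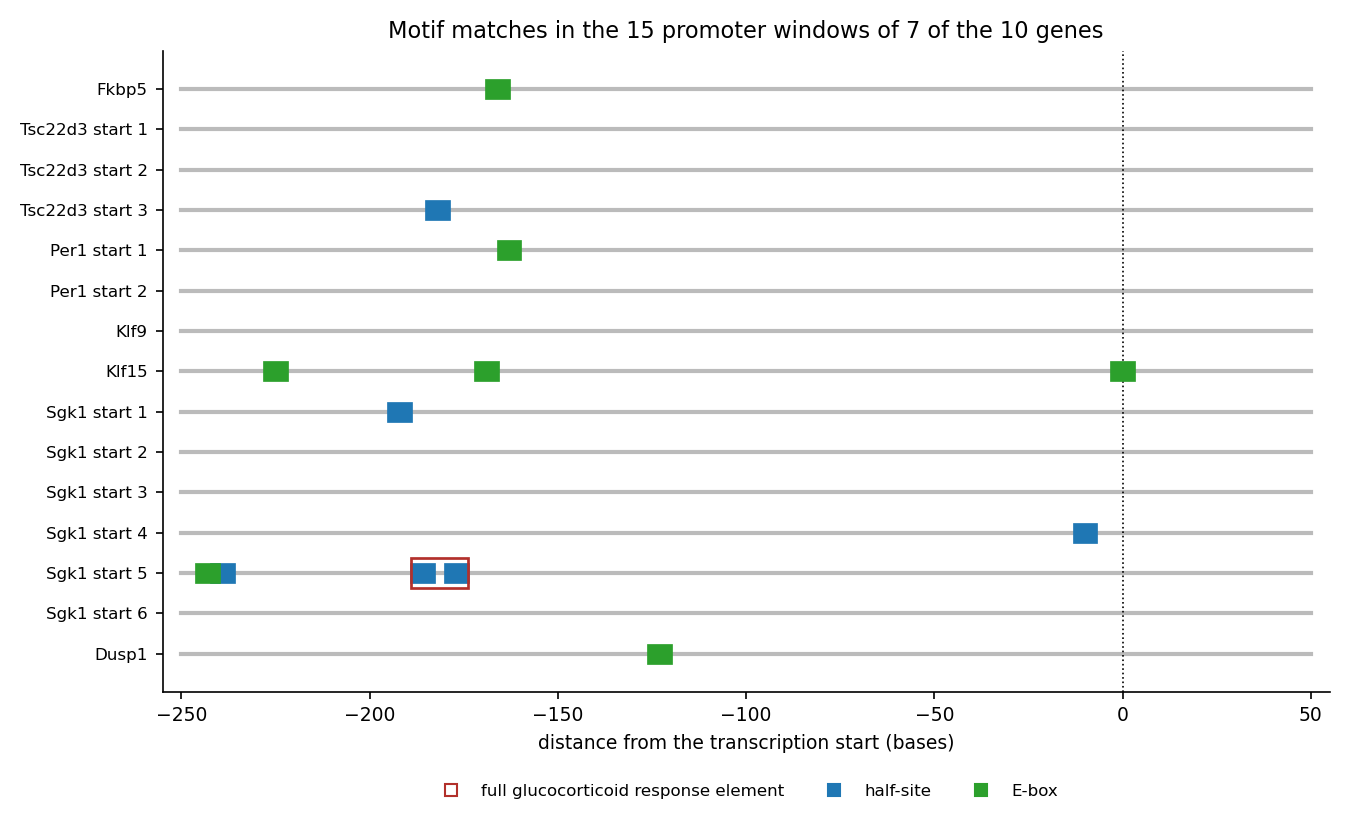
Motif matches in the 15 promoter windows of 7 genes, drawn along the distance from the transcription start in bases. Open red boxes mark the complete glucocorticoid response element, blue boxes AGAACA or TGTTCT and green boxes CACGTG, and the only red box lies 189 bases before an Sgk1 start.

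Signals were linear intensities scaled by the authors so that the trimmed mean of every array was 500. Median signals ran between 84.7 and 95 with DEX+TE, 71.3 and 77.7 with DEX, and 76.0 and 86.2 in control, and the share of probe sets at 50 or more was 62.55 to 65.23%, 58.47 to 59.95% and 59.46 to 62.87% on the same groups. Fast fiber markers were bright on all 9 arrays (summed signal of 10 markers 515557 to 563122 with DEX+TE, 423736 to 527452 with DEX, 558498 to 744713 in control). Lymphocyte markers were dim. Of 7 T and B lymphocyte markers with a probe set, 3 (Cd3e, Cd4 and Cd2) were below 50 on all arrays. The summed signal of the 7 was 237 to 453 with DEX+TE, 192 to 389 with DEX and 291 to 341 in control. DEX replicate 1 stood apart for these genes. It had the highest signal of the 3 DEX arrays for 8 of the 10 genes, whereas it was highest for 35% of 13691 genes. Its mean correlation with its group was 0.943, against 0.944 and 0.943 for DEX replicates 2 and 3, so it was not apart by that measure. Its log2 ratio of 3′ to 5′ actin probe sets, a measure of RNA integrity, was 0.10, against 0.36 and 0.43 on the other DEX arrays. A lower ratio means less excess of 3′ over 5′ signal. The ratio was 0.25 to 0.33 on the control arrays and 0.38 to 0.54 on the DEX+TE arrays, so it also differed between these groups without overlap. The same ratio of Gapdh was -0.38 on DEX replicate 1 and also on control replicate 1, and -0.35 to -0.30 on the others. For the 10 genes, calls that rest on DEX replicate 1 are given with and without it. Calls of genes in the other lists and of cell type markers are given only with it. Values of the probe sets that stand for a gene are given without it for some comparisons only, and the others can also move with it.

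The receptor gene Nr3c1 (chr18:39410545-39519421) was measured by 6 probe sets. Its probe set 1460303_at gave 2956, 3240.4 and 3141 in DEX+TE mice, 3237, 3231 and 3296 in DEX mice and 3094, 3619 and 3536 in control mice. The 3 groups overlapped. The log2 fold change was -0.07 ± 0.10 for DEX against control (95% interval -0.30 to 0.16, adjusted p = 0.796 by limma, n = 3 per group) and -0.13 ± 0.10 for DEX+TE against control (95% interval -0.36 to 0.10, adjusted p = 0.582). The probe set 1421866_at gave 780.0, 669 and 786 in DEX+TE mice, 855, 760.0 and 723 in DEX mice and 900.5, 1107 and 932 in control mice. All 6 DEX-injected mice were below the 3 control mice with this probe set, and the log2 fold change was -0.33 ± 0.13 for DEX (adjusted p = 0.312) and -0.39 ± 0.13 for DEX+TE (adjusted p = 0.258), which did not pass. The probe sets did not move as one. Their log2 changes in DEX ranged over -0.17 (1421867_at), -0.01 (1457635_s_at), 0.14 (1453860_s_at, 0.46 without DEX replicate 1) and 0.11 (1431378_at, at or near the minimum of 50), and the correlation between pairs of them over the 9 arrays lay between -0.70 and 0.86. No Nr3c1 probe set was called in any comparison.

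Fkbp5 (chr17:28398753-28486149), the cochaperone of the feedback loop, was the only gene of the 10 called higher. Its probe set 1416125_at gave 4479, 3897 and 4326 in DEX+TE mice, 7827, 5090.4 and 4255 in DEX mice and 1303, 950.4 and 1235 in control mice. Every DEX-injected mouse was above every control mouse, and DEX replicate 1 was the highest of the 9. The means were 4234 ± 302 in DEX+TE mice, 5724 ± 1869 in DEX mice and 1163 ± 187 in control mice (SD, n = 3 each). Fkbp5 was 4.8-fold higher in DEX than in control (log2 fold change 2.26 ± 0.24, 95% interval 1.72 to 2.81, adjusted p = 0.0134) and 3.67-fold higher in DEX+TE than in control (log2 fold change 1.88 ± 0.24, 95% interval 1.33 to 2.42, adjusted p = 0.0314).

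The other Fkbp5 probe set, 1448231_at, gave 2155, 1933 and 2022 in DEX+TE mice, 2714, 2188 and 1990.4 in DEX mice and 568, 496 and 768 in control mice. The order of the groups was the same, and the correlation of the 2 probe sets over the 9 arrays was 0.98. The fold was 3.79 in DEX (log2 fold change 1.92 ± 0.19, adjusted p = 0.0128) and 3.39 in DEX+TE (log2 fold change 1.76 ± 0.19, adjusted p = 0.0171). Over all 6 DEX-injected mice the folds were 4.2 and 3.59 (adjusted p = 0.00898 and 0.00645), and the exact two-sided permutation p of each probe set was 0.0119, the smallest that 6 against 3 mice allow. Without DEX replicate 1 the log2 fold changes in DEX were 2.01 and 1.80, both called. The DEX call of 1416125_at was lost without control replicate 2 (adjusted p = 0.0528) and without control replicate 3 (0.0524), and in DEX+TE it was kept only without DEX replicate 1 (0.0134) or DEX replicate 3 (0.0368). The DEX+TE call of 1448231_at was lost without control replicate 1 (0.0628) or without any DEX+TE array (0.0714 to 0.0972).

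DEX+TE and DEX were not told apart at Fkbp5. The log2 difference was -0.39 ± 0.24 with 1416125_at (95% interval -0.94 to 0.16, adjusted p = 0.733) and -0.16 ± 0.19 with 1448231_at (95% interval -0.60 to 0.28, adjusted p = 0.863). Without DEX replicate 1 the differences were -0.14 and -0.04.

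The serum- and glucocorticoid-regulated kinase gene Sgk1 (chr10:21882184-21999903), whose product is activated by insulin and growth factor signaling, fell. Its signals were 20678, 20036 and 22322 in DEX+TE mice, 19474, 17379 and 17806 in DEX mice and 31170.1, 27379 and 31336 in control mice. All 6 DEX-injected mice lay below all 3 control mice, and the DEX mice lay below the DEX+TE mice. The means were 21012 ± 1179 in DEX+TE mice, 18219.9 ± 1107 in DEX mice and 29962 ± 2238 in control mice (SD, n = 3 each). The log2 fold change was -0.72 ± 0.10 in DEX (0.609 times control, 95% interval -0.96 to -0.47, adjusted p = 0.0416) and -0.61 ± 0.09 over all DEX-injected mice (adjusted p = 0.0345, exact permutation p = 0.0119), both called. In DEX+TE it was -0.51 ± 0.10 (95% interval -0.75 to -0.27, adjusted p = 0.112), which did not pass, and the difference between DEX+TE and DEX was 0.21 ± 0.10 (95% interval -0.04 to 0.45, adjusted p = 0.695). The DEX call was lost whichever 1 of the 9 arrays was left out (adjusted p = 0.0697 to 0.139), and the call over all DEX-injected mice held only without DEX replicate 1 (0.0473, against 0.0716 to 0.12). Centring each array on its median gave -0.05 for DEX+TE against DEX, the opposite sign.

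Tsc22d3 (chrX:140539528-140600522) encodes GILZ, a leucine zipper protein through which glucocorticoids restrain inflammatory transcription factors. Its probe set 1420772_a_at gave 7111, 7507 and 6667 in DEX+TE mice, 8532, 6021 and 6722 in DEX mice and 11578, 12637 and 12512 in control mice. Every DEX-injected mouse was below every control mouse. The means were 7095 ± 420.4 in DEX+TE mice, 7091 ± 1296 in DEX mice and 12242 ± 579 in control mice (SD, n = 3 each). Over all DEX-injected mice the log2 fold change was -0.79 ± 0.12 (adjusted p = 0.0385, exact permutation p = 0.0119), which was called, and the separate values of -0.80 ± 0.14 in DEX (adjusted p = 0.0685) and -0.79 ± 0.14 in DEX+TE (adjusted p = 0.0852) were not. The call over all DEX-injected mice was kept only without DEX replicate 1 (adjusted p = 0.0224) and lost without any other array (0.073 to 0.128). Without that array the DEX contrast also passed, at a log2 fold change of -0.94 (adjusted p = 0.0439).

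A further Tsc22d3 probe set, 1425281_a_at, gave 5762, 5839 and 5392 in DEX+TE mice, 7062, 4896 and 5363 in DEX mice and 7914, 8824 and 8936 in control mice, and its log2 fold change over all DEX-injected mice was -0.59 ± 0.13 (adjusted p = 0.0918). Without DEX replicate 1 it was -0.67 and was called (adjusted p = 0.0418). This probe set followed the probe set above closely (r = 0.99 over 9 arrays). The 2 other probe sets did not, with log2 changes in DEX of -0.25 (1425557_x_at) and -0.07 (1444365_at). DEX+TE and DEX differed at 1420772_a_at by 0.01 ± 0.14 on the log2 scale (95% interval -0.32 to 0.35), by 0.16 without DEX replicate 1, and by -0.24 after centring on the median.

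Dusp1 (chr17:26505591-26508472) encodes MKP-1, a phosphatase that switches off p38 and JNK kinases. Its signals were 5256, 5932 and 6693 in DEX+TE mice, 5835, 5770.5 and 3397 in DEX mice and 6583, 3981 and 6945 in control mice. The groups overlapped, and the spread within DEX and within control was wide. DEX changed the mean by -0.22 ± 0.29 on the log2 scale (95% interval -0.89 to 0.45, adjusted p = 0.762), and DEX+TE by 0.07 ± 0.29 (95% interval -0.60 to 0.74, adjusted p = 0.932), a value that was -0.09 after centring on the median. Without DEX replicate 1, DEX against control was -0.36.

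Per1 (chr11:69095108-69109965), a repressor of the circadian clock that carries a well known glucocorticoid response element, gave 699, 813 and 612 in DEX+TE mice, 569.8, 529 and 358 in DEX mice and 1277, 988 and 1497 in control mice. The 3 groups did not overlap, with the DEX mice lowest, the DEX+TE mice between and the control mice highest. The means were 708 ± 101 in DEX+TE mice, 486 ± 113 in DEX mice and 1254 ± 256 in control mice (SD, n = 3 each). In DEX the signal was 0.385 times control (log2 fold change -1.38 ± 0.23, 95% interval -1.92 to -0.84), and the adjusted p of 0.0609 missed the threshold. In DEX+TE it was 0.569 times control (log2 fold change -0.81 ± 0.23, 95% interval -1.35 to -0.28, adjusted p = 0.205). The difference between DEX+TE and DEX was 0.56 ± 0.23 (95% interval 0.02 to 1.10), with an adjusted p of 0.628 over all probe sets. Without DEX replicate 1, DEX against control was -1.51 and DEX+TE against DEX was 0.69, neither called. Over all DEX-injected mice the log2 fold change was -1.10 ± 0.20 (adjusted p = 0.0599, exact permutation p = 0.0119). Per1 is thus given as values and not as a call.

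**Figure D2:**
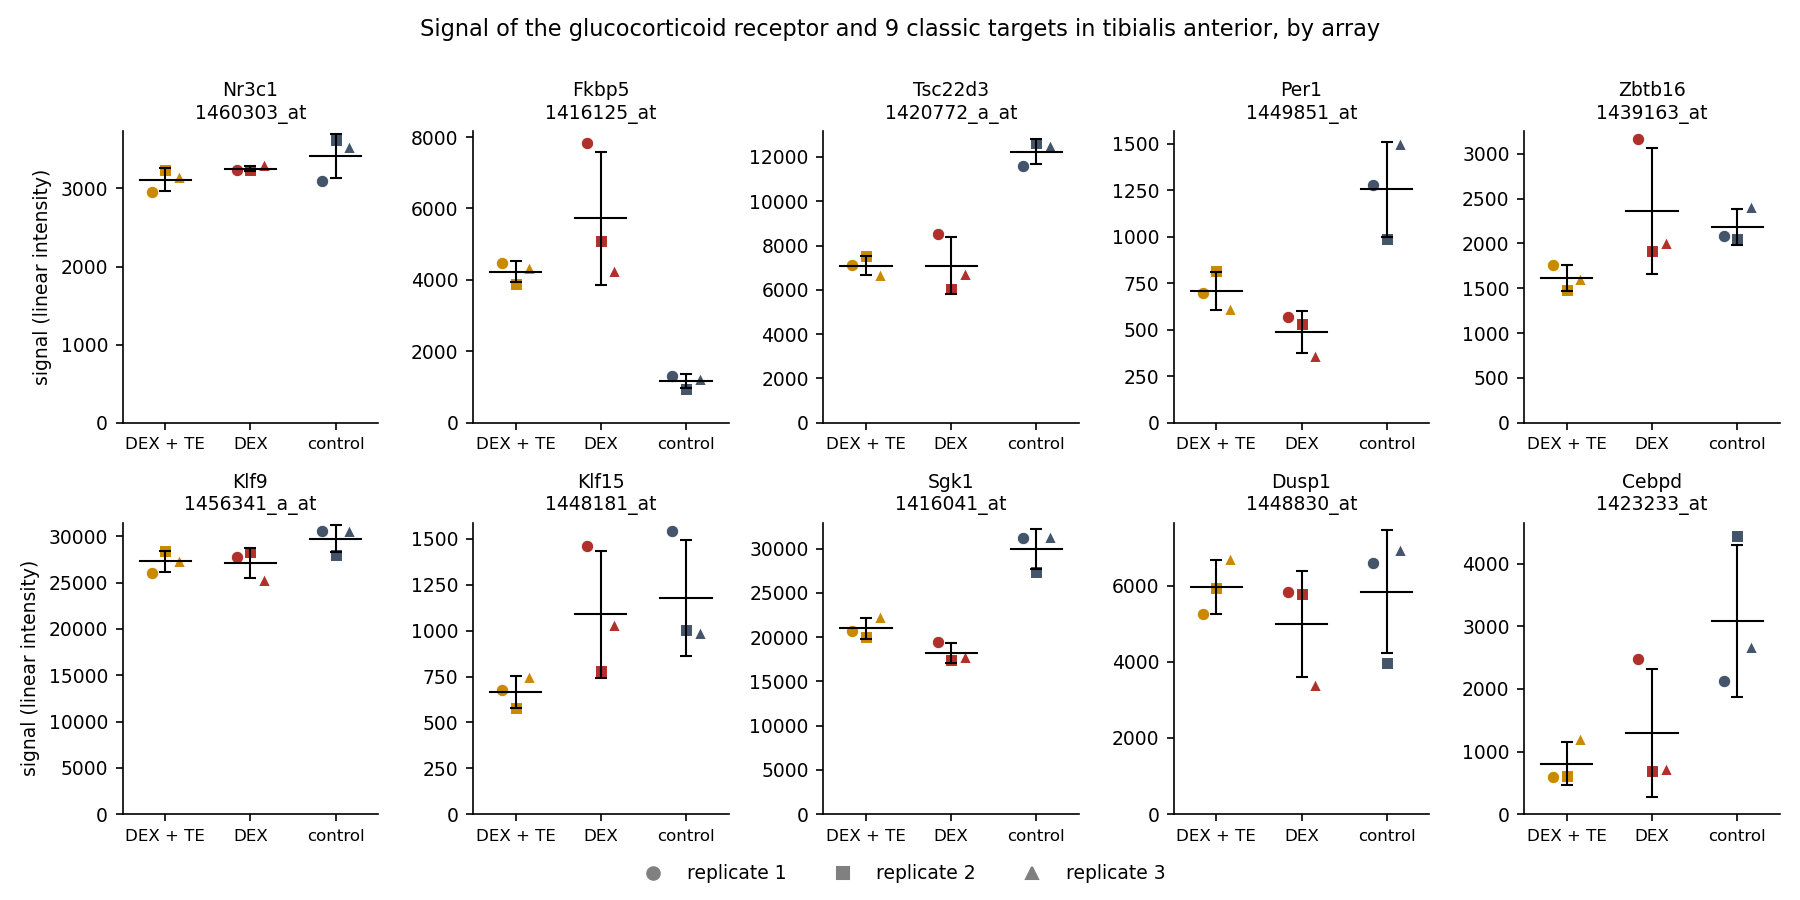
Signal of each of the 10 genes, by the probe set that stands for it, on each of the 9 arrays (linear intensity, trimmed mean 500, axes starting at 0), with the mean and SD of 3 mice as bars and point shapes for replicate numbers. Fkbp5 is higher in all 6 DEX-injected mice than in all 3 control mice, Tsc22d3, Per1 and Sgk1 are lower, and Nr3c1 and Dusp1 overlap between groups.

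Klf15 (chr6:90461043-90491803), a Krüppel-like factor that activates genes of branched-chain amino acid breakdown, gave 676, 576 and 749 in DEX+TE mice, 1462, 778 and 1029 in DEX mice and 1542, 1002 and 987 in control mice. DEX and control overlapped, and the DEX+TE mice lay below all the others. On the log2 scale the difference was -0.13 ± 0.27 for DEX against control (95% interval -0.76 to 0.51, adjusted p = 0.866), -0.67 ± 0.27 for DEX+TE against DEX (95% interval -1.30 to -0.03, adjusted p = 0.624) and -0.80 ± 0.27 for DEX+TE against control (95% interval -1.43 to -0.16, adjusted p = 0.275). None passed. DEX replicate 1 was 1.62 times the mean of the other DEX mice, and without it DEX against control was -0.36 and DEX+TE against DEX was -0.43.

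Zbtb16 (chr9:48651797-48836225), a zinc finger transcription factor also called PLZF, showed a like arrangement. Its probe set 1439163_at gave 1762, 1476 and 1604 in DEX+TE mice, 3168, 1912 and 2000.2 in DEX mice and 2079, 2047 and 2411 in control mice. The DEX+TE mice were again below all the others, while DEX and control overlapped. Differences on the log2 scale were 0.08 ± 0.20 for DEX against control (95% interval -0.39 to 0.55), -0.51 ± 0.20 for DEX+TE against DEX (95% interval -0.99 to -0.04, adjusted p = 0.619) and -0.43 ± 0.20 for DEX+TE against control (adjusted p = 0.401). Without DEX replicate 1, which was again 1.62 times its group mates, DEX against control was -0.15 and DEX+TE against DEX was -0.28. The probe sets of this gene pointed different ways, with DEX+TE against control at 0.19 ± 0.15 for 1419874_x_at and 0.33 ± 0.25 for 1427638_at. In DEX against control these 2 gave 0.32 ± 0.15 and 0.46 ± 0.25, and 0.18 and 0.55 without DEX replicate 1.

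Klf9 (chr19:23141226-23168129), a Krüppel-like repressor that also feeds into the clock, had 7 probe sets. The brightest, 1456341_a_at, gave 26071, 28423 and 27343 in DEX+TE mice, 27804, 28303 and 25233 in DEX mice and 30566, 28024 and 30558 in control mice. DEX replicate 2 and DEX+TE replicate 2 lay above the lowest control mouse. Its log2 fold change was -0.13 ± 0.10 in DEX (95% interval -0.36 to 0.09) and -0.12 ± 0.10 in DEX+TE (95% interval -0.35 to 0.10). A dimmer probe set, 1428289_at, gave 11789.6, 12332 and 12295 in DEX+TE mice, 13883, 13488 and 12154 in DEX mice and 17130.5, 15112 and 15904 in control mice. Here all 6 DEX-injected mice were below control, with log2 fold changes of -0.29 ± 0.10 in DEX (adjusted p = 0.252) and -0.40 ± 0.10 in DEX+TE (adjusted p = 0.158), which did not pass. The 5 other probe sets ranged between -0.33 (1428288_at) and 0.94 (1452723_at, mean signals of 66.5 in DEX+TE mice, 66.9 in DEX mice and 46.6 in control mice) in DEX. Of these, 1422264_s_at also had all 6 DEX-injected mice below control, at -0.32 ± 0.14 in DEX and -0.31 ± 0.14 in DEX+TE, and was not called. Probe sets 1436763_a_at and 1436952_at were above 0 in DEX, at 0.18 and 0.12.

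Cebpd (chr16:15887286-15889545), a CCAAT-enhancer binding protein active in inflammation and fat cell formation, gave 599.8, 608 and 1199 in DEX+TE mice, 2473, 682 and 718 in DEX mice and 2123, 4447 and 2668 in control mice. The DEX+TE mice were below all control mice, whereas DEX replicate 1 lay inside the control range and was 3.53 times the mean of the other DEX mice. The log2 fold change was -1.46 ± 0.56 in DEX (95% interval -2.77 to -0.15, adjusted p = 0.3) and -2.07 without DEX replicate 1 (adjusted p = 0.130). In DEX+TE it was -1.95 ± 0.56 (95% interval -3.26 to -0.64, adjusted p = 0.211). DEX+TE against DEX was -0.49 ± 0.56 (95% interval -1.80 to 0.82), and 0.12 without DEX replicate 1. The dimmer probe set 1456605_at gave -0.22 in DEX and -0.23 in DEX+TE.

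Over the 28 probe sets, a call was an adjusted p under 0.05 across all 29269 probe sets tested together with a log2 fold change of at least 0.6 in size. In DEX against control 3 of the 28 were called, both Fkbp5 probe sets higher and Sgk1 lower, where 0.502% of all probe sets were called (0.232% higher and 0.27% lower). In DEX+TE against control 2 of 28 were called, both of Fkbp5, where 0.379% of all were called. With all DEX-injected mice together 4 of 28 were called, the same 3 and Tsc22d3 lower, where 0.929% of all were called. Between DEX+TE and DEX none of the 28 was called, where 0.0137% of all were. An unadjusted p under 0.05 was reached there by 3 of 28, against 7.76% of all probe sets. Rank Product made 0 calls among the 28 in that comparison. In simulated data for DEX against control it recovered 0 of 100 changes of log2 1 and 2 of 100 of log2 2. That simulation drew noise independently for each probe set and gave DEX and DEX+TE the same changes. Recovery in DEX+TE against DEX was therefore not measured, and Rank Product made 53 false calls there. Its 0 calls in that comparison, or in comparisons not simulated for it, are not read as a lack of change. In DEX against control, its 0 calls in the lists below say little about whether a gene changed. Counted by gene, 2, 1 and 3 of the 10 were called in DEX, in DEX+TE and in all DEX-injected mice against control, where 0.599%, 0.453% and 1.07% of 13691 genes were.

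Called or not, more of the members had lower than higher signal after DEX. In DEX against control 10 of 28 probe sets did not overlap between groups (21.2% of all probe sets did not), of which 7 were lower (12.1% of all were lower without overlap). In DEX+TE against control 13 of 28 did not overlap (22.7% of all), and 11 of these were lower (10.3% of all). Between DEX+TE and DEX 4 of 28 did not overlap (14.8% of all). By gene these were 4 of 10, Per1 and Sgk1 higher and Zbtb16 and Klf15 lower, where 15% of 13691 genes did not overlap. Over all DEX-injected mice 9 of 28 did not overlap with control (10.9% of all). The median log2 fold change of the 28 was -0.13 in DEX and -0.18 in DEX+TE against control, while over all probe sets it was -0.03 and 0.05. An unadjusted p under 0.05 was reached by 9 of 28 in DEX against control, against 14.4% of all probe sets. Probe sets of 1 gene share their transcript, so the 28 are not independent.

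**Figure D3:**
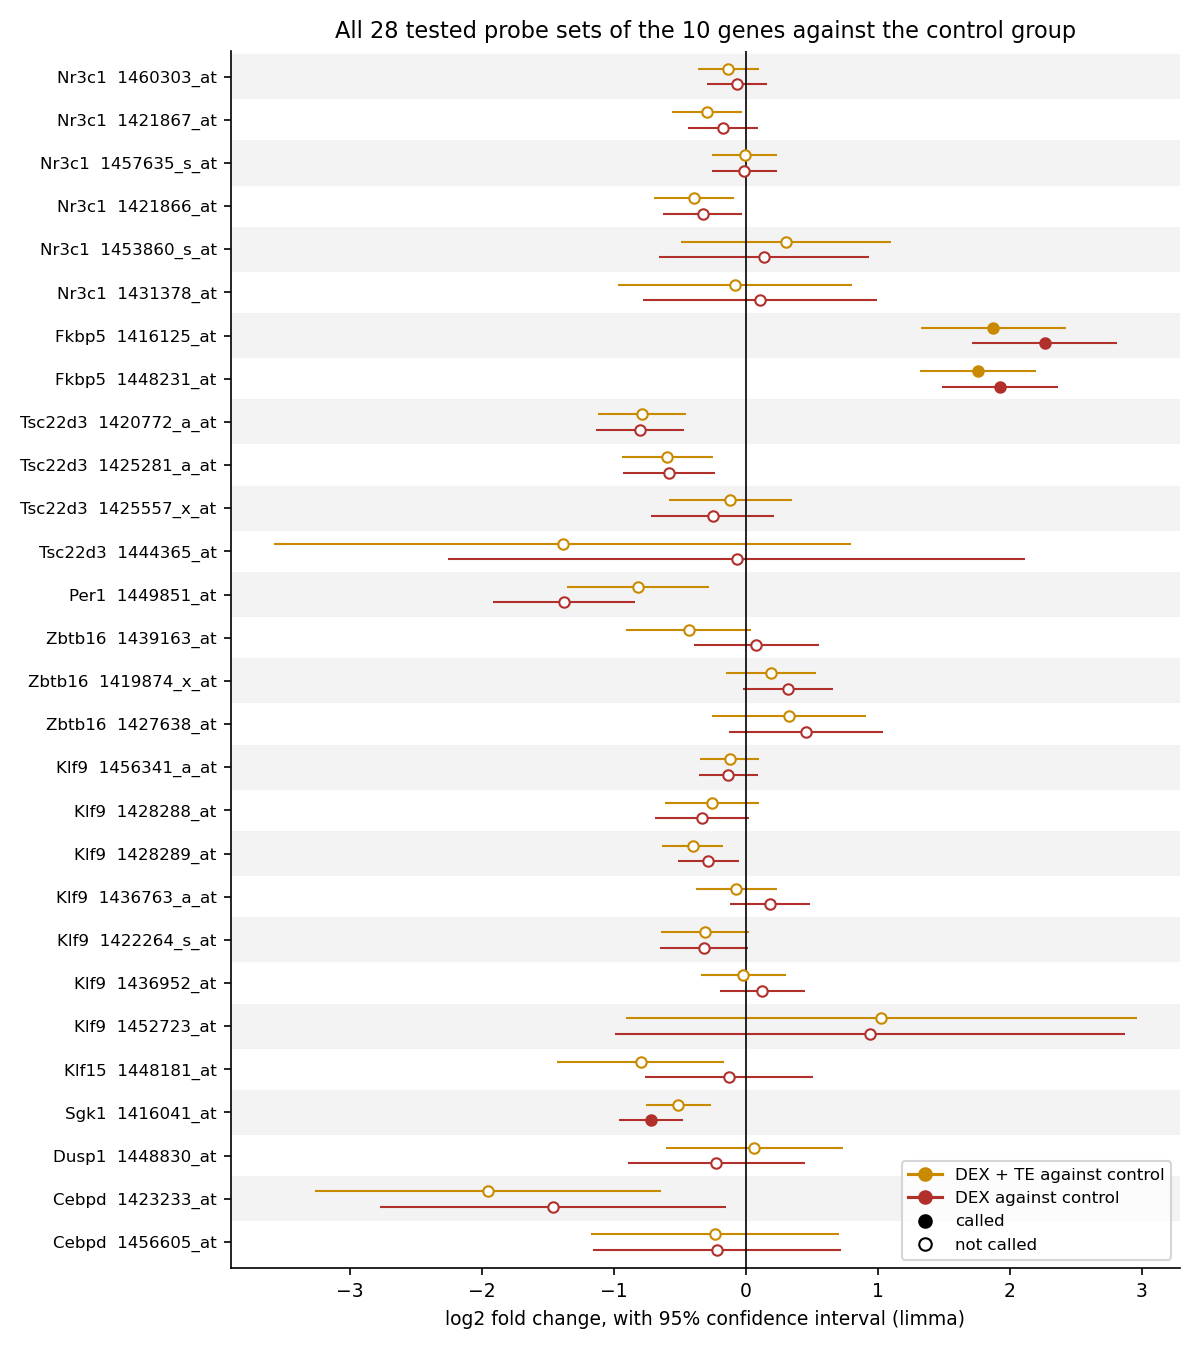
Log2 fold change against control, with its 95% interval, of the 28 tested probe sets in DEX+TE (gold, upper point of each pair) and DEX (red, lower point), with filled points for called changes. Only the Fkbp5 probe sets are called in both, Sgk1 is called in DEX and not in DEX+TE, and most other intervals cross 0.

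Across the 9 arrays, the log2 signals of the genes fell into a small number of patterns, which are given as descriptions because the arrays hold 3 groups and share their scaling. Fkbp5 ran opposite to Sgk1 (r = -0.89), Tsc22d3 (-0.86) and Per1 (-0.80). Per1 and Sgk1 (0.92), Tsc22d3 and Sgk1 (0.90), Tsc22d3 and Cebpd (0.86), and Per1 and Klf9 (0.84) ran together, and so did Zbtb16 and Klf15 (0.80). The genes most like Fkbp5 among 13690 others were the sodium channel subunit gene Scn3b (r = 0.99, log2 fold change 2.35 in DEX and 1.98 in DEX+TE against control), Xpo7 (0.99) and Lrg1 (0.98, log2 fold change 2.51 and 2.28 in the same order), so that a close match was found among strongly and weakly changed genes alike. Xpo7, a nuclear exportin gene, had log2 fold changes of 0.38 in DEX and 0.28 in DEX+TE. The genes closest to Sgk1 were Fam107a (0.98, log2 fold change -2.45 and -2.13), Nop53 (0.97) and Uqcrh (0.96). The other genes matched transcripts with smaller changes, for the most part. Tsc22d3 was most like Snrk, Coq5 and Usp9x (0.98 each), Per1 like Tead1 (0.97), Rabgap1l and Alk (0.96 each), and Klf15 like Dusp19 (0.94), 9530068E07Rik (0.91) and Ybey (0.90). Cebpd was most like Fahd2a (0.97), Hnrnpul2 and Apip (0.96 each), Nr3c1 like Mga (0.96), Armc5 (0.94) and Gm26782 (0.92), and Klf9 like Kansl2 (0.94), Ccnt2 and Celf1 (0.92 each). Zbtb16 was most like AW209491, Tbc1d1 (0.93 each) and Abcb4 (0.92), and Dusp1 like Spink4, 1810065E05Rik (0.92 each) and Terf2ip (0.91). Each of the 10 genes thus had 3 matches at 0.90 or above among the 13690, whether or not it differed between groups.

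**Figure D4:**
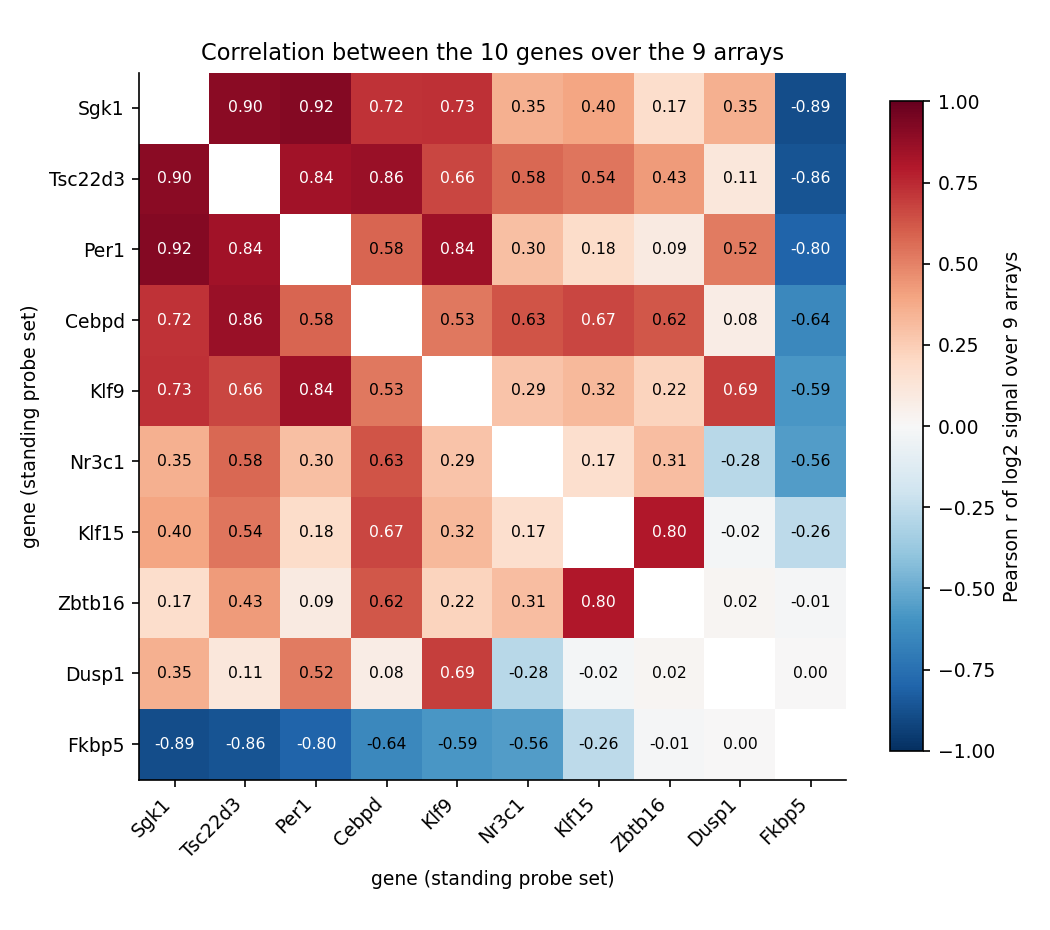
Pearson correlation of log2 signal between the 10 genes over the 9 arrays, each gene by the probe set that stands for it. Fkbp5 has negative values with Sgk1 (-0.89), Tsc22d3 (-0.86) and Per1 (-0.80), and these 3 genes have positive values with each other.

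Genes that act with the receptor were examined as fixed lists, by 1 probe set per gene. Counts of p under 0.05 before adjustment, here and below, stand beside 14.4% of all probe sets in DEX against control. The share for DEX+TE against control is not given here. Values above 0 were found for 45.6% of 13691 genes in DEX and 53.4% in DEX+TE against control. Of 10 tested genes for receptors, hormone-converting enzymes and chaperones, none was called in any comparison, with p under 0.05 before adjustment for 1 gene in DEX and for 2 in DEX+TE against control, and with 0 calls by Rank Product. Hsd11b1, the enzyme that regenerates active glucocorticoid, averaged 583 ± 42 in DEX+TE mice, 453 ± 129 in DEX mice and 617 ± 98.5 in control mice (SD, n = 3 each; log2 fold change -0.48 ± 0.23 in DEX). Nr3c2, the mineralocorticoid receptor, gave -0.29 ± 0.19 in DEX, the dim Hsd11b2 -0.62 ± 0.80, and Dnajb1, an Hsp40 chaperone, -0.28 ± 0.24. Dnajb1 was 1.03 ± 0.24 in DEX+TE against DEX (adjusted p = 0.409), with all 3 DEX+TE mice above all DEX mice. Of 9 coregulators none was called, 2 had p under 0.05 before adjustment in each of DEX and DEX+TE against control, and Rank Product made 0 calls. The largest values were those of Nrip1 (-0.94 ± 0.31 in DEX, adjusted p = 0.238), Ncoa3 (-0.48 ± 0.21), Carm1 (-0.31 ± 0.11) and Ncoa1 (0.24 ± 0.16).

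Of 26 other glucocorticoid-responsive genes tested, 2 rose and 2 fell in DEX, and 2 rose and 3 fell in DEX+TE against control. Pnmt, which encodes the enzyme that makes adrenaline, gave 866, 648 and 991 in DEX+TE mice, 1006, 1000.1 and 1059.6 in DEX mice and 232, 209 and 267 in control mice. It was called higher in both (2.12 ± 0.17 in DEX and 1.81 ± 0.17 in DEX+TE on the log2 scale), as was Lcn2, which encodes the secreted iron-carrier binding protein lipocalin-2 (8.61 ± 0.53 and 8.05 ± 0.53, with 2 of 3 control arrays below 50). Ddit4, an inhibitor of mTORC1 signaling known to be induced by acute glucocorticoid, gave 372, 277 and 189 in DEX+TE mice, 389.6, 258 and 312 in DEX mice and 5136, 4308 and 4470.0 in control mice. It was called lower in both (-3.87 ± 0.26 and -4.10 ± 0.26), as was the NF-κB inhibitor Nfkbia (-1.28 ± 0.17 and -1.36 ± 0.17). Cebpb was called lower in DEX+TE (-0.95 ± 0.11, adjusted p = 0.0282) and not in DEX (-0.69 ± 0.11, adjusted p = 0.0585). Rank Product called 3 genes of this list, Ddit4, Arrdc2 and Lcn2, in DEX and in DEX+TE against control. Over all 29269 probe sets it called 76 in DEX, 133 in DEX+TE and 408 in all DEX-injected mice against control. It made 29 false calls in simulated data for DEX against control. The other comparisons with control were not simulated for it, so its calls here and below are descriptions.

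The called genes of this list went both ways, and its median log2 fold change was 0.20 in DEX and 0.02 in DEX+TE against control. Between DEX+TE and DEX none of the 26 was called, 4 had p under 0.05 before adjustment, and Rank Product made 0 calls. In that comparison 22 of 26 had values below 0, with a median of -0.32, where 57.4% of 13691 genes had values above 0, with a median of 0.04. The list was chosen with earlier results of these data known, so this count is a description only. The muscle ubiquitin ligase genes, chosen after their values were seen, were among them. Fbxo32 averaged 15223 ± 1489 in DEX+TE mice, 21098 ± 1462 in DEX mice and 13586 ± 3887 in control mice (log2 fold change 0.67 ± 0.20 in DEX against control, adjusted p = 0.193), and Trim63 averaged 12016 ± 1597 in DEX+TE mice, 19596 ± 917 in DEX mice and 14674 ± 665 in control mice (-0.71 ± 0.12 in DEX+TE against DEX, adjusted p = 0.218). DEX replicate 1 was the highest DEX array for 14 of the 26, where it was highest for 35% of 13691 genes. Values of this list without that array are not given here.

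**Figure D5:**
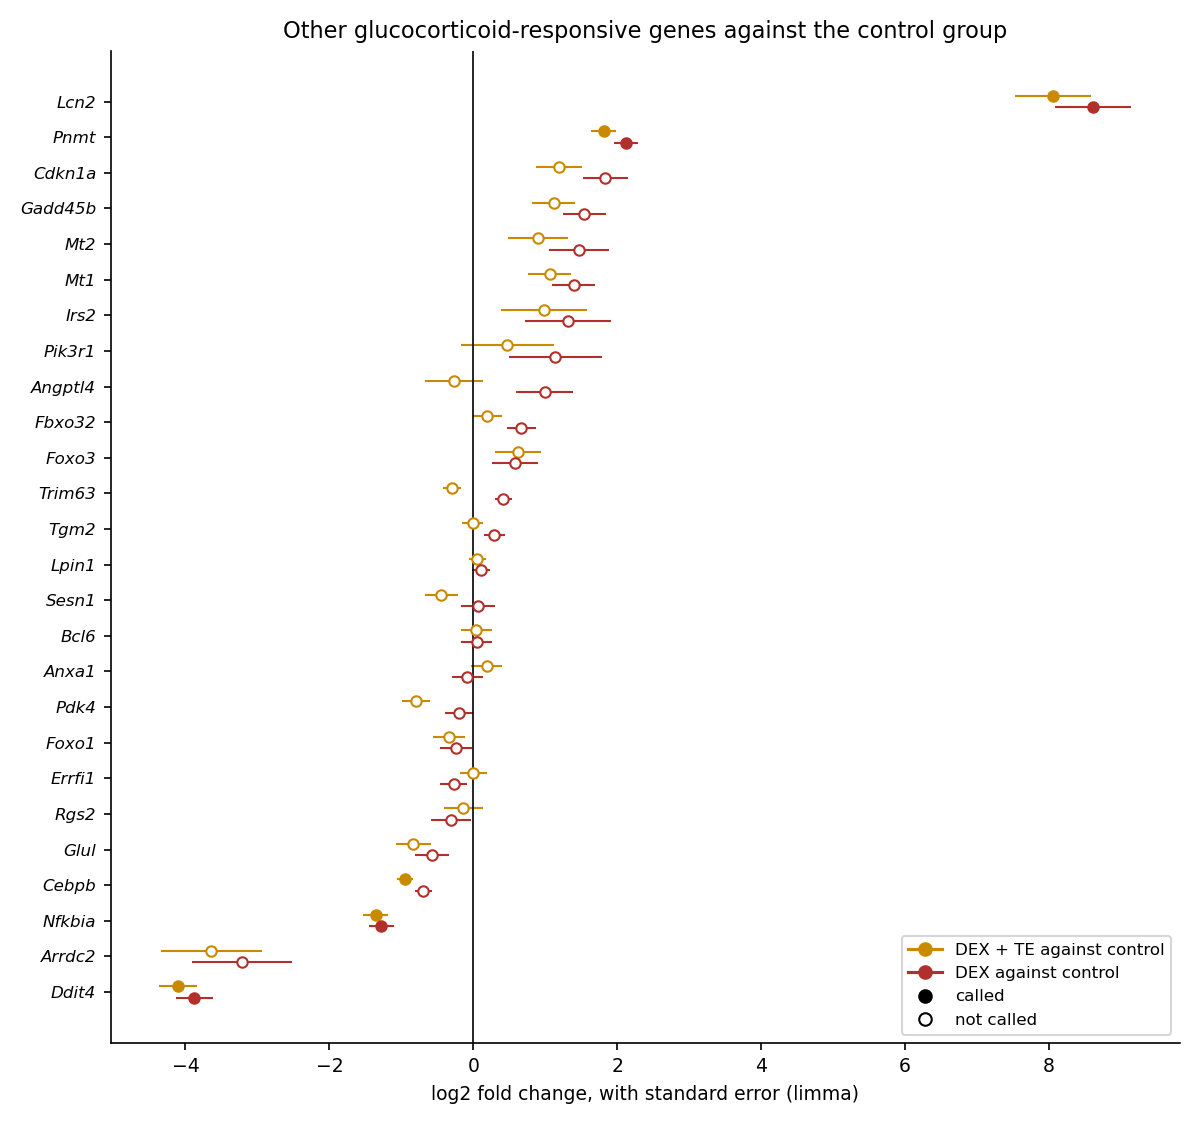
Log2 fold change against control, with its SE, of 26 other glucocorticoid-responsive genes in DEX+TE and DEX, with filled points for called changes. Lcn2 at the top and Ddit4 at the bottom are the extremes, and most genes lie within 2 of 0.

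The relatives of the members and the pathways around them gave few calls. Of 25 family relatives tested, none was called in DEX (before adjustment 5 had p under 0.05 upward and 3 downward, and Rank Product called 0) and Cebpb alone was called in DEX+TE against control, with Klf10 at 1.44 ± 0.30, Per2 at -1.35 ± 0.35 and Dusp2 at 1.12 ± 0.33 in DEX. Of 16 core clock genes, none was called in DEX (4 had p under 0.05 before adjustment in the upward and 6 in the downward direction, and Rank Product called 0). Bhlhe40, a repressor of Clock and Bmal1 activity, gave 8417, 6735 and 8496 in DEX+TE mice, 7307, 8794 and 6028 in DEX mice and 3722, 3091 and 2749.8 in control mice and was called higher in DEX+TE against control (1.31 ± 0.19, adjusted p = 0.0431), while DEX against control gave 1.20 ± 0.19 (adjusted p = 0.0505). Beside Per1, the clock genes Per2 (-1.35 ± 0.35 in DEX and -1.46 ± 0.35 in DEX+TE against control), Per3 (-0.71 ± 0.19 and -0.62 ± 0.19) and Dbp (-0.90 ± 0.36 and -0.38 ± 0.36) had values below 0 and were not called.

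Of 12 immediate early genes, which respond within minutes to stimuli, none was called in any of the comparisons. Values were above 0 for 10 of 12 in DEX and 11 of 12 in DEX+TE against control, with medians of 0.53 and 1.03. Among 13691 genes, 45.6% and 53.4% had values above 0. An unadjusted p under 0.05 was reached by 5 upward and 1 downward in DEX, against 14.4% of all probe sets. In DEX+TE against control 7 reached it, all upward. The largest in size in DEX were Atf3 (2.00 ± 0.49), Fos (1.67 ± 0.44), Myc (-1.37 ± 0.56) and Junb (1.14 ± 0.42), and Rank Product called Atf3 and Fos over all DEX-injected mice. Of 8 amino acid breakdown genes downstream of Klf15, none was called, 2 had p under 0.05 before adjustment in DEX and 1 in DEX+TE against control, and Rank Product made 0 calls. Tat (-1.29 ± 1.08 in DEX, near the detection minimum), Glul (-0.57 ± 0.24), Got1 (-0.24 ± 0.10) and Bcat2 (0.19 ± 0.27) had the largest values.

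Markers of other cells in the muscle also differed between groups, though not all in step with the injections. Of 8 fibroblast markers, 4 were called lower in DEX (Col3a1 at -2.77 ± 0.26, with Col1a2, Col1a1 and Pcolce) and 1 in DEX+TE against control, and their summed signal was 28300 to 30214 in DEX+TE mice, 18579 to 22233 in DEX mice and 34676 to 52870 in control mice. The 8 did not move as one. By value 7 were lower and 1 higher in DEX, and 6 lower and 2 higher in DEX+TE against control. In each comparison 1 of the higher markers had p under 0.05 before adjustment. All 10 fast fiber markers were lower by value in DEX and in DEX+TE than in control, with none called (8 and 1 had p under 0.05 before adjustment, and Rank Product made 0 calls). Of 6 slow fiber markers, 5 were higher and 1 lower by value in each, with medians of 0.55 and 0.34, and limma called none. Rank Product called 1 of them, Myh7, over all DEX-injected mice. The summed slow fiber signal overlapped between groups, at 3574 to 4704 in DEX+TE mice, 3984 to 6422 in DEX mice and 3963 to 8177 in control mice. Of 5 adipocyte markers tested, Adipoq and Retn were called higher in DEX+TE against control (2.19 ± 0.26 and 1.69 ± 0.21), while Fabp4, the brightest, was lower without overlap in both (-0.40 ± 0.12 in DEX and -0.21 ± 0.12 in DEX+TE) and not called. The summed adipocyte signal was 20298 to 22666 in DEX+TE mice, 16584 to 20038 in DEX mice and 20790 to 24728 in control mice. Of 6 endothelial markers Cldn5 was called higher in both (1.56 ± 0.21 in DEX and 2.12 ± 0.21 in DEX+TE), but 4 of the 6 were higher and 2 lower by value in each comparison, with medians of 0.10 in DEX and 0.07 in DEX+TE. Their summed signal was 4588 to 4813 in DEX+TE mice and 4314 to 4814 in DEX mice, above the 3391 to 4138 of control mice. The summed signal of 6 macrophage markers was 1648 to 1719 in DEX+TE mice, 904 to 1172 in DEX mice and 988 to 1895 in control mice. By value all 6 were below control in DEX and 5 were above it in DEX+TE, and none was called. The summed signal of the neutrophil markers was 329 to 688, 339 to 705 and 161 to 245 in the same groups. Limma called none of the 3 neutrophil markers tested, and Rank Product called S100a9 over all DEX-injected mice. The part of these shifts in the Fkbp5, Sgk1, Tsc22d3, Per1 and Cebpd values was not tested, and in whole muscle fewer cells of a type and less RNA per cell cannot be told apart.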

How the data were processed

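The GeneChip 3′IVT Express Kit was used on 250 ng total RNA of whole tibialis anterior muscle for Affymetrix mouse expression arrays, 1 per mouse, with 3 mice in each of 3 groups. The deposited values were linear signal intensity per probe set, scaled on each array to a mean of 500 after trimming 2% at each end. The study's methods name RMA, which gives log2 values, so the authors deposited another summary, and the program behind it was not given in the sources used here. Of 45101 probe sets, 64 controls were left out. Gene symbols came from the platform annotation (34945 probe sets with 1 symbol, 932 with several and 9160 with none).

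Signals were log2 transformed, and the 29269 probe sets with a group mean of at least log2 of 50 were fitted with limma 3.58.1 in R 4.3.3 as 3 group means over all 9 arrays, with Benjamini-Hochberg adjustment over all of them. DEX against control, DEX+TE against DEX, DEX+TE against control and the mean of both injected groups against control were tested, each as a two-sided contrast. The comparisons with control share its 3 arrays. A call needed an adjusted p under 0.05 and a log2 fold change of at least 0.6 in size. Values after ± are SD for signals and SE for log2 fold changes. Exact permutation tests over mice cannot go below 0.1 for 3 against 3. Replicates were separate mice, so p-values measure the spread between the mice profiled. These had been picked for weights close to their group average, and the spread among all mice of a group was not measured. Precision is limited by the number of arrays.

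All probe sets of the 10 genes were named. From each other list, called genes were named and, where fewer than 4 were called, those with the largest change in DEX to make 4. Members and lists were chosen with earlier results of these data known. Alternatives were a minimum of 100 or none, median centring, quantile normalization, an offset of 16, a mean-variance trend, a replicate block, a fit to the 6 arrays compared, leaving out each array, no fold minimum, and Rank Product with 100 permutations. In simulated data of the same size for DEX against control, limma recovered 39 of 100 changes of log2 1 and 67 of 100 of log2 2 with 6 false calls, and Rank Product 0 and 2 with 29. Promoter windows were RefSeq's on GRCm38.p6, matched by symbol. They were searched for exact letters. Python 3.11.15, numpy 2.4.6, pandas 2.3.3 and matplotlib 3.10.9 were used.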

Additional observations from a re-analysis of the deposited data

How the results depend on the processing

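In DEX against control, where 3 of the 28 probe sets were called, a signal minimum of 100 gave 5, a mean-variance trend 5, a replicate block 1, a fit to the 6 arrays compared 0 and Rank Product 0, and leaving out 1 array gave 1 to 3. In DEX+TE against control, with 2 called, no filter gave 1, the trend 5, the replicate block 0, the 6-array fit 1 and Rank Product 0, and leaving out 1 array gave 0 to 2. Over all DEX-injected mice, with 4 called, no filter, median centring, the replicate block and Rank Product gave 2 each, and leaving out 1 array gave 2 to 5. In DEX+TE against DEX the count was 0 under every alternative. Over all probe sets, the 147, 4, 111 and 272 calls of the 4 comparisons became 563 in DEX and 409 in DEX+TE against control with the trend, 53 and 44 with no filter, and 41 and 30 with the replicate block. No called log2 fold change turned its sign under any alternative. Fkbp5 over all DEX-injected mice was called under all 18 alternatives with either probe set, whereas Sgk1 in DEX was called under 4 of 19 and Tsc22d3 over all DEX-injected mice under 6 of 18. Median centring moved the median of all log2 fold changes to 0.08 in DEX against control, -0.20 in DEX+TE against DEX and -0.10 in DEX+TE against control, and turned the sign of several values near 0, among them Nr3c1 1460303_at in DEX. The cause of these differences was not tested. The replicate numbers gave no sign of pairing. The 9 same-numbered pairs correlated between -0.02 and 0.05 in their deviations from the group means, and pairs with different numbers between -0.04 and 0.04. With 3 arrays per group this check cannot exclude pairing or a shared batch. Between 58.47 and 65.23% of the probe sets of an array reached a signal of 50, and dimmer ones were not tested unless a group mean reached it.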
